A study of Mus musculus with 16 samples.

Results

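Csf3r, Csf3, Csf2ra, Csf2rb, Csf2rb2, Csf1 and Csf1r, the genes of the colony-stimulating factors and their receptors, were followed in neutrophils during experimental sepsis. These 7 genes, of 49315 counted, were named as a family and chosen by measured values of the same data, since Csf3r fell and Csf3 rose after cecal ligation and puncture (CLP) in WT mice. The change of these genes from 0h to 12 hours in WT is therefore given as a description without a test. RNA was sequenced from cells sorted as Ly6G+, CD11b+ and CD45.2+ from the blood and the lung of male WT and αD KO mice aged 8 to 12 weeks. αD is the integrin chain CD11d, encoded by Itgad. Cells were taken at the baseline (0h) or at 12 hours after CLP, in which the cecum is ligated and punctured so that gut bacteria reach the peritoneum. The 8 groups were WT blood, WT lung, αD KO blood and αD KO lung, each at 0h and at 12 hours. The αD KO strain came from the Jackson Laboratory, and no Cre driver or cell-restricted deletion is named for it in the sources used here. The 0h mice are labelled naïve and untreated, whereas mice with CLP were anesthetized with ketamine and xylazine and received saline and buprenorphine under the skin. The part of these agents and of the surgery itself in the change from 0h to 12 hours cannot be told apart from that of sepsis.

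Each group had 3 count files, listed under 2 samples, and these are called libraries 1a, 1b and 2. Libraries 1a and 1b share a sample number, and no source used here tells whether they came from separate animals, so p-values measure the spread between libraries, which may be technical in part. Total counts per library were 5753476 to 29984954 (median 18741144). The 8 libraries 1b had counts for 29162 to 38844 genes, and the other 16 libraries for 17132 to 32666. Levels are given as CPM, which relate the counts to library size scaled by edgeR's TMM factors over the 24 libraries, with the mean ± SD of 3 libraries. In sorted bulk cells, fewer expressing cells and less RNA per cell cannot be told apart.

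Itgad went against the genotype labels. All 12 libraries labelled WT had 0.0583 to 3.66 CPM, and all 12 labelled αD KO had more, 12.5 to 102 CPM. With a single count for a whole gene, a transcript of the targeted allele cannot be told from an intact one, and Itgad overlaps genes on the opposite strand (Gm44850 and 4931431B13Rik). "αD KO" below stands for the libraries labelled αD KO. In addition, 3 αD KO lung libraries stood apart from their time labels. The scale used ran from 0 (mean of WT lung 0h) to 1 (mean of WT lung 12 hours), leaving a library out of its own reference mean. It was taken over 1336 genes called by edgeR between these WT groups, other than the members, so the WT libraries helped to choose its genes. On it, αD KO lung 0h library 2 lay at 1.026, and αD KO lung 12 hours libraries 1a and 2 lay at 0.099 and 0.188. The remaining library of the αD KO lung 12 hours group, 1b, lay at 0.825. For several member fold changes that rest on the libraries that stood apart, values without them are also given. The correlations over the 24 libraries and the counts of list genes called include them.

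G-CSF (Csf3) drives the production of neutrophils and their release from the bone marrow, and it acts through a homodimeric receptor, Csf3r. GM-CSF (Csf2) prolongs neutrophil survival and primes the cells. It binds an α chain, Csf2ra, which signals with the common β chain, Csf2rb. Mice carry another β chain, Csf2rb2, which serves the IL-3 receptor alone. M-CSF (Csf1) and IL-34 bind the tyrosine kinase Csf1r, which is best known from monocytes and macrophages. The cytokine receptors signal through JAK kinases and STAT factors, and SOCS family proteins such as CISH limit them.

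Positions are on GRCm38, as the files give them. Csf3r lies on chromosome 4 from 126024550 to 126044440 (ENSMUSG00000028859), Csf3 on chromosome 11 from 98701263 to 98703629 (ENSMUSG00000038067) and Csf1 on chromosome 3 from 107741048 to 107760469 (ENSMUSG00000014599). Csf2ra lies on chromosome 19 from 61224402 to 61228418 (ENSMUSG00000059326). Csf1r is ENSMUSG00000024621. Csf2rb2 (chromosome 15, 78282517 to 78305603, minus strand, ENSMUSG00000071714) and Csf2rb (chromosome 15, 78325990 to 78351000, plus strand, ENSMUSG00000071713) are neighbours. Counts are summed over the exons of a gene. Csf1r overlaps the oppositely directed gene Hmgxb3, which had 42 to 403 counts per library, and the strand used in counting is not given in the sources used here.

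The promoters of Csf3r and Csf2rb2 are shown because the 2 receptor genes moved in opposite directions after CLP. Both windows run from 250 bases before to 50 bases after the RefSeq start (GRCm38.p6), chr4:126024409-126024708 on the plus strand and chr15:78305672-78305971 on the minus strand. Capitals mark matches to the letters TTCNNNGAA, a site shape of STAT factors, or GAGGAA, a core of the myeloid factor PU.1, on either strand.
Csf3r: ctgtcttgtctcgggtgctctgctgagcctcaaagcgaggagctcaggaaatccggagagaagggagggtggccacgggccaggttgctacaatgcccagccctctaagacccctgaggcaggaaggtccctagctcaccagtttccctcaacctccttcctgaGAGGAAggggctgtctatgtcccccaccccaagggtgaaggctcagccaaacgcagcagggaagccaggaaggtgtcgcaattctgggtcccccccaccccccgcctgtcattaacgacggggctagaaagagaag
Csf2rb2: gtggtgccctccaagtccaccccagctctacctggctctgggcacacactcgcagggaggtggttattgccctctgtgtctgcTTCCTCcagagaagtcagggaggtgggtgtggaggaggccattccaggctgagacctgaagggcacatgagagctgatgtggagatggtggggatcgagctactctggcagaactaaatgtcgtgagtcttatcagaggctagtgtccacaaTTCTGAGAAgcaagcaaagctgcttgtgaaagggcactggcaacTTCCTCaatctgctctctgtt
In the Csf3r window GAGGAA was found once, at position -86, and TTCNNNGAA was not found. The Csf2rb2 window held TTCTGAGAA at position -15 and GAGGAA on the opposite strand at positions -167 and 30. Of 27025 mouse promoters of the same length, 8.47% held TTCNNNGAA and 28.3% held GAGGAA. A C/EBP site shape, TTGCNNAA, which 10.8% of promoters held, was in none of the 4 members with a promoter entry (Csf3r, Csf2rb2, Csf1 and Csf2ra). These matches describe letters only, and no binding was measured.

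Csf2rb and Csf2rb2 are near copies, so their counts depend on the reads that tell them apart. The first 120 coding bases of both (transcripts of GENCODE M21) are shown, with the 4 bases that differ in capitals.
Csf2rb: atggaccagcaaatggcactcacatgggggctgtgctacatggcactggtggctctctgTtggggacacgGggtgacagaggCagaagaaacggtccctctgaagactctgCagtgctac
Csf2rb2: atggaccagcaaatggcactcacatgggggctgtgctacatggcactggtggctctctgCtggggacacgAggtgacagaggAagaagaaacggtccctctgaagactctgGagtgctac
Over the whole coding sequences, of 2691 and 2637 bases, 92.9% of aligned positions were identical. Of the 150-base windows of the Csf2rb transcript, 3.47% were also found in a Csf2rb2 transcript, and 3.59% the other way. Reads were sequenced as pairs of 150 bases and only uniquely mapped reads were counted, and reads from shared stretches leave the levels of both genes uncertain.

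The levels differed widely among the members. Per length, Csf3r was the highest of the 7 in every group, at 461 to 2686.9 CPM per kb (group means). Csf2ra came next in every group, at 195 to 313 CPM per kb. In WT blood at 0h the order was Csf3r, Csf2ra, Csf1r, Csf2rb, Csf1, Csf2rb2 and Csf3, with means of 2458.9, 246, 134, 64.2, 61.8, 2.38 and 0.108 CPM per kb. The neighbours Csf2ra and Csf1r, Csf1r and Csf2rb, and Csf2rb and Csf1 overlapped between libraries in that group. At 12 hours in WT blood the order became Csf3r, Csf2ra, Csf2rb, Csf1r, Csf2rb2, Csf1 and Csf3, and even Csf3r and Csf2ra overlapped between libraries. At 12 hours in WT lung Csf3 was the fourth in the order, at 145 ± 160 CPM per kb.

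**Figure D1:**
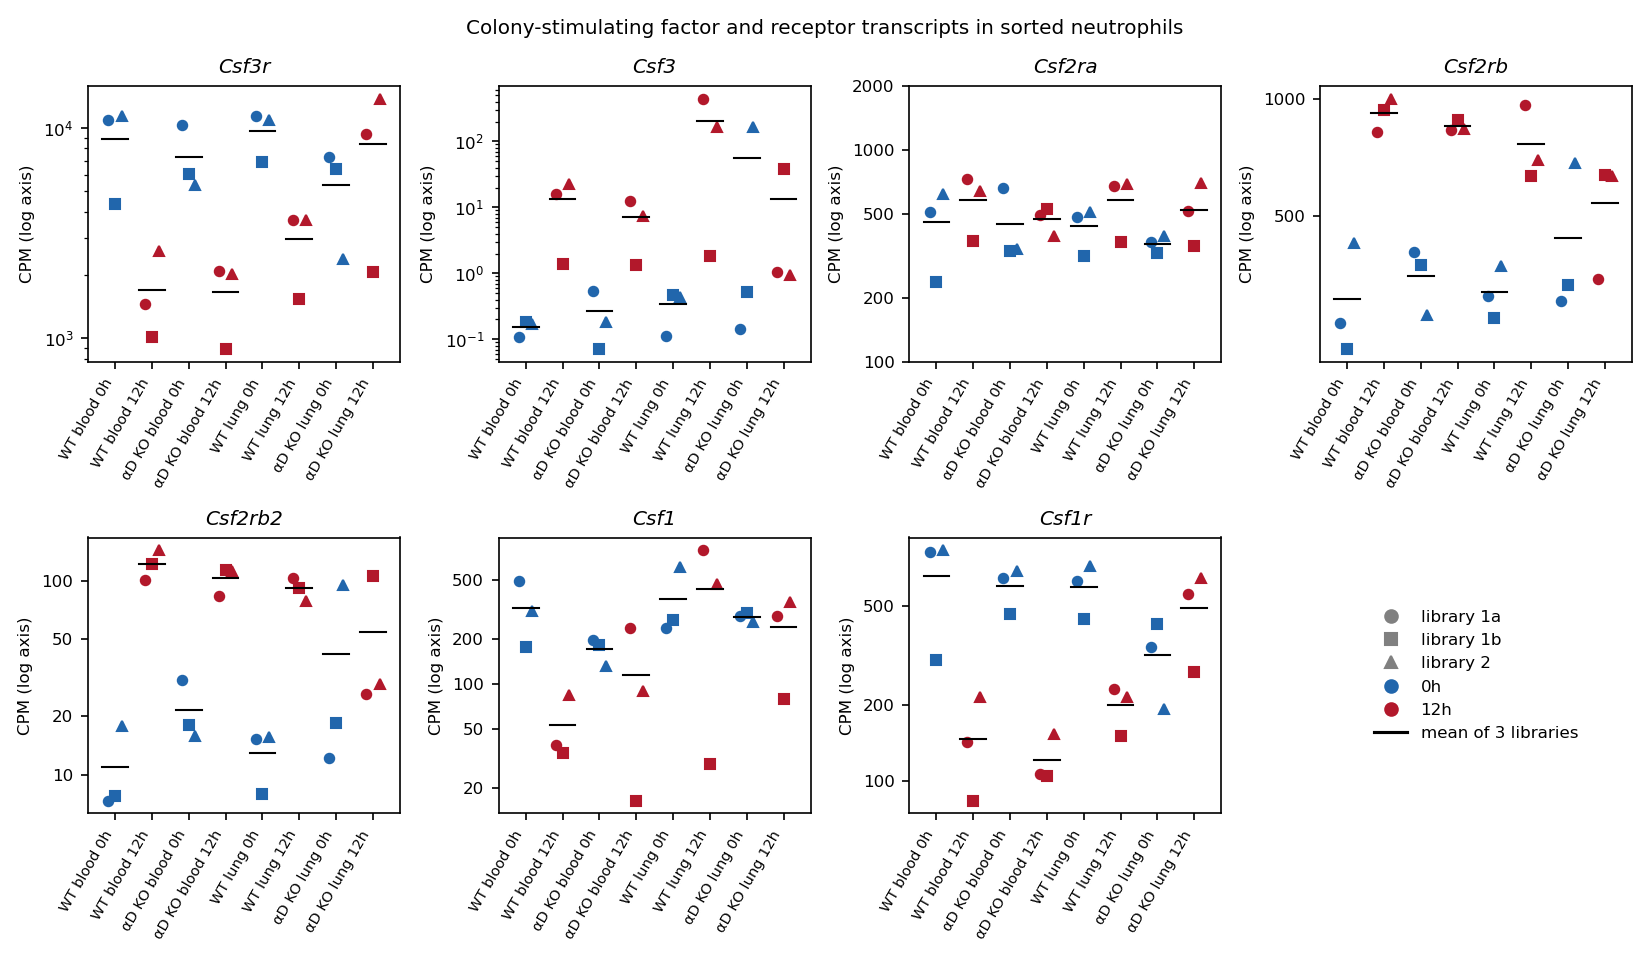
Level of each of the 7 genes (y axis, CPM, log axis) in the 3 libraries of each of the 8 groups (x axis). Symbols give the library, colours the time, and black lines the mean of 3 libraries. Csf3r lay between 4360.7 and 11351.9 CPM in the 6 WT libraries at 0h and between 1018.6 and 3670.7 CPM at 12 hours, while the αD KO lung libraries at 12 hours spread from 2059 to 13800.5 CPM.

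In WT mice the G-CSF receptor was lower and its ligand higher after CLP, in blood and in lung. Csf3r in WT blood was 10909.9, 4360.7 and 11351.9 CPM in libraries 1a, 1b and 2 at 0h. At 12 hours it was 1455.4, 1018.6 and 2602 CPM. All 3 libraries at 12 hours lay below all 3 at 0h, and the log2 fold change was -2.58 (standard error 0.51). In WT lung Csf3r was 11339.4, 6871 and 10880.3 CPM at 0h and 3670.7, 1538.4 and 3655.9 CPM at 12 hours (log2 fold change -1.81, standard error 0.46). The groups did not overlap in lung either. Library 1b was the lowest of its group for Csf3r in 6 of the 8 groups, so the comparison was also made within library numbers. In WT blood the log2 ratio of 12 hours to 0h was -2.91, -2.1 and -2.13 for libraries 1a, 1b and 2, and in WT lung -1.63, -2.16 and -1.57. Across all genes, 13.5% of 14625 tested were called in WT blood and 9.02% of 14859 in WT lung (edgeR adjusted p under 0.05 and absolute log2 fold change over 1). These shares are printed for the record, since this contrast chose the genes.

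Csf3 was near the limit of detection at 0h. In WT blood it was 0.109, 0.181 and 0.168 CPM, from 3, 2 and 4 counts. At 12 hours it was 16.2, 1.4 and 22.9 CPM, from 278, 28 and 330 counts, and every library exceeded those at 0h. In WT lung Csf3 was 0.113, 0.464 and 0.445 CPM at 0h and 447, 1.84 and 165 CPM at 12 hours. Library 1b at 12 hours, with 23 counts, was far below the other two but still above the 0h libraries. The fitted log2 fold changes were 6.17 (standard error 1.03) in blood and 9 (standard error 1.71) in lung, and they rest on 9 and 23 counts in all at 0h. Within library 1b alone, the log2 ratio was 2.96 in blood and 1.99 in lung, against 7.22 and 11.96 for library 1a.

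The β chains were higher at 12 hours and the libraries of the GM-CSF α chain overlapped between times. Csf2rb2, the IL-3 specific chain, was 7.32, 7.78 and 17.8 CPM in WT blood at 0h and 102, 123 and 145 CPM at 12 hours (log2 fold change 3.33, standard error 0.4). For the lung of WT mice it was 15.3, 7.94 and 15.6 CPM at 0h and 104, 92.5 and 78.8 CPM at 12 hours (log2 fold change 2.83, standard error 0.38). Neither tissue showed overlap, and the ratio was above 0 within every library number. Csf2rb went from 306 ± 105 to 920 ± 90.6 CPM in WT blood (SD, n = 3; log2 fold change 1.42, standard error 0.35). For the lung of WT mice it went from 319 ± 49.2 to 765 ± 177 CPM (log2 fold change 1.22, standard error 0.35), also without overlap. Csf2ra was 511, 239 and 617 CPM in WT blood at 0h and 725, 372 and 637 CPM at 12 hours, so its libraries overlapped (log2 fold change 0.15, standard error 0.38). The log2 fold change of Csf2ra in lung was 0.33 (standard error 0.35), again with overlap.

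The M-CSF receptor was lower at 12 hours in both tissues, whereas its ligand was lower in blood alone. Csf1r was 822, 304 and 834 CPM in WT blood at 0h and 142, 83 and 216 CPM at 12 hours (log2 fold change -2.35, standard error 0.46). For the lung of WT mice it was 628, 444 and 717 CPM at 0h and 233, 151 and 216 CPM at 12 hours (log2 fold change -1.63, standard error 0.34). Neither pair of groups overlapped. Csf1 was 490, 178 and 311 CPM in WT blood at 0h and 38.6, 34.1 and 84.6 CPM at 12 hours (log2 fold change -2.84, standard error 0.47). For the lung of WT mice Csf1 was 237, 269 and 611 CPM at 0h and 798, 28.8 and 472 CPM at 12 hours. Libraries 1a and 2 at 12 hours were within or above the 0h range and library 1b was below it, which gave a log2 fold change of 0.01 (standard error 0.86).

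**Figure D2:**
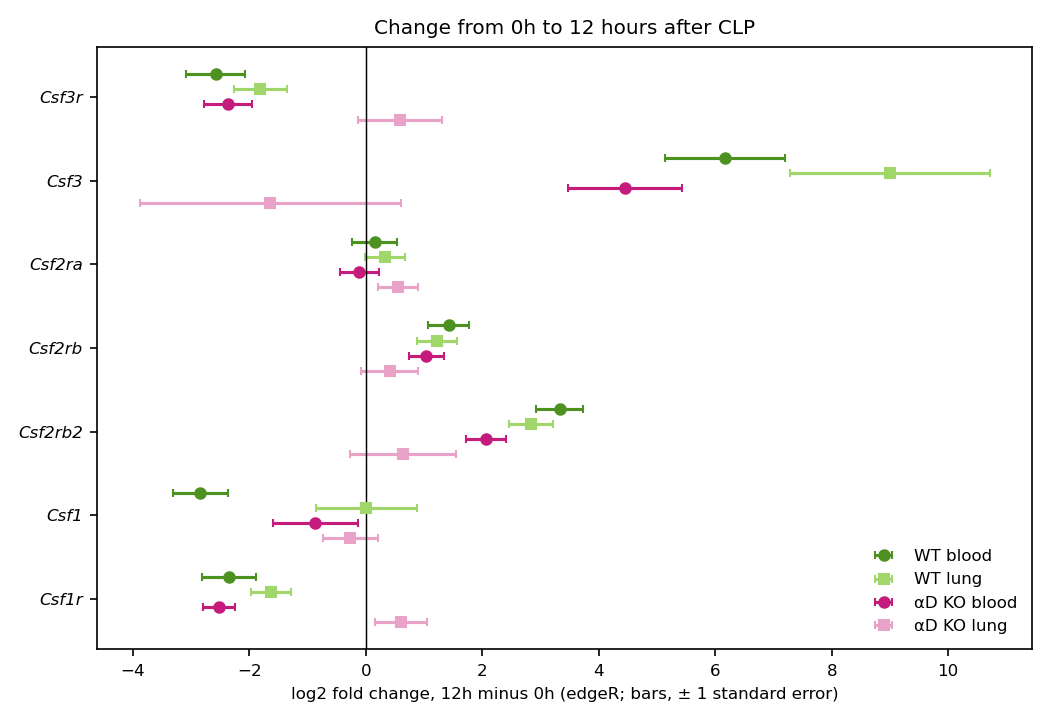
Log2 fold change from 0h to 12 hours after CLP (x axis, edgeR, bars ± 1 standard error) for each gene (y axis) in WT and αD KO blood and lung. Csf3r and Csf1r lie below 0 and Csf3, Csf2rb and Csf2rb2 above 0 in WT blood, WT lung and αD KO blood, while the αD KO lung values lie between -1.64 and 0.63.

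The αD KO blood libraries are separate from the WT contrast that chose the genes, and there the time change could be tested. Of the 7 genes, edgeR's quasi-likelihood test called 4, namely Csf3 and Csf2rb2 higher and Csf3r and Csf1r lower at 12 hours. Over all genes, 8.75% of 14156 tested were called. Csf3r was 10339.4, 6056.7 and 5382.4 CPM at 0h and 2092.3, 886 and 2017.1 CPM at 12 hours. The groups did not overlap (log2 fold change -2.37, standard error 0.41, edgeR adjusted p = 0.0146). Csf3 was 0.546, 0.0705 and 0.185 CPM at 0h and 12.6, 1.34 and 7.35 CPM at 12 hours (log2 fold change 4.45, standard error 0.98, edgeR adjusted p = 0.0333). It rested on 19 counts at 0h and 295 at 12 hours, with library 1b at 1 and 15 counts. Since Csf3 passed the filter on low counts only through its 12 hours libraries, its adjusted p is not taken as support for a rise. Csf2rb2 was 31, 18 and 15.8 CPM at 0h and 84.3, 114 and 113 CPM at 12 hours (log2 fold change 2.06, standard error 0.34, edgeR adjusted p = 0.0115). Csf1r was 646, 463 and 686 CPM at 0h and 106, 104 and 153 CPM at 12 hours (log2 fold change -2.52, standard error 0.28, edgeR adjusted p = 0.00348).

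Csf2rb in αD KO blood was 403, 374 and 278 CPM at 0h and 834, 883 and 839 CPM at 12 hours. Its libraries did not overlap, but it missed the threshold (log2 fold change 1.04, standard error 0.3, edgeR adjusted p = 0.0679), and it passed in DESeq2 (adjusted p = 0.0101). Csf1 was 197, 183 and 132 CPM at 0h and 239, 16.3 and 89.6 CPM at 12 hours, which overlapped (log2 fold change -0.87, standard error 0.73, edgeR adjusted p = 0.474). Csf2ra was not called (log2 fold change -0.11, standard error 0.33, edgeR adjusted p = 0.862). Csf1r was called whichever library was left out, with an edgeR adjusted p of 0.0072 to 0.048. Csf3r was lost without 0h library 1a, 12 hours library 1a or 12 hours library 2 (edgeR adjusted p = 0.089, 0.0732 and 0.095), Csf2rb2 without 0h library 1a or 12 hours library 2 (0.0603 and 0.0712), and Csf3 without any library except 12 hours library 1b. When all 8 groups shared a fit, where 0.236% of all genes were called, Csf1r was called and Csf3r, Csf3 and Csf2rb2 were not.

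In αD KO lung edgeR called none of the 7 genes between 0h and 12 hours, where 0% of 17939 genes tested were called. None of the 7 had an unadjusted p under 0.05, against 72 of all genes, and DESeq2 also called 0, giving no adjusted p for Csf3. Csf3r was 7269.4, 6347.6 and 2372.3 CPM at 0h and 9390.5, 2059 and 13800.5 CPM at 12 hours. Its lowest 0h value was that of library 2 and its lowest 12 hours value that of library 1b. Csf3 was 0.142, 0.52 and 167 CPM at 0h and 1.05, 38.2 and 0.948 CPM at 12 hours. Csf2rb2 was 12.2, 18.4 and 96.1 CPM at 0h and 26.1, 107 and 29.6 CPM at 12 hours. Csf1r was 341, 421 and 194 CPM at 0h and 556, 272 and 646 CPM at 12 hours. Thus library 2 at 0h and library 1b at 12 hours were high for Csf3 and Csf2rb2 and low for Csf3r and Csf1r, and the other 4 libraries were the opposite. The groups overlapped for all 7 genes. Without the 3 libraries that stood apart, 2 libraries at 0h and 1 at 12 hours remained, and the log2 fold change was 7.01 for Csf3 and 2.9 for Csf2rb2. Csf3r was then -1.65 and Csf1r -0.4. That choice of libraries follows their expression, so no test is drawn from it. Without 0h library 2 alone, Csf3 changed from -1.64 to 5.46 on the log2 scale, and without 12 hours library 1b alone to -5.77, and it was called in neither (edgeR adjusted p = 1 and 0.993).

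**Figure D3:**
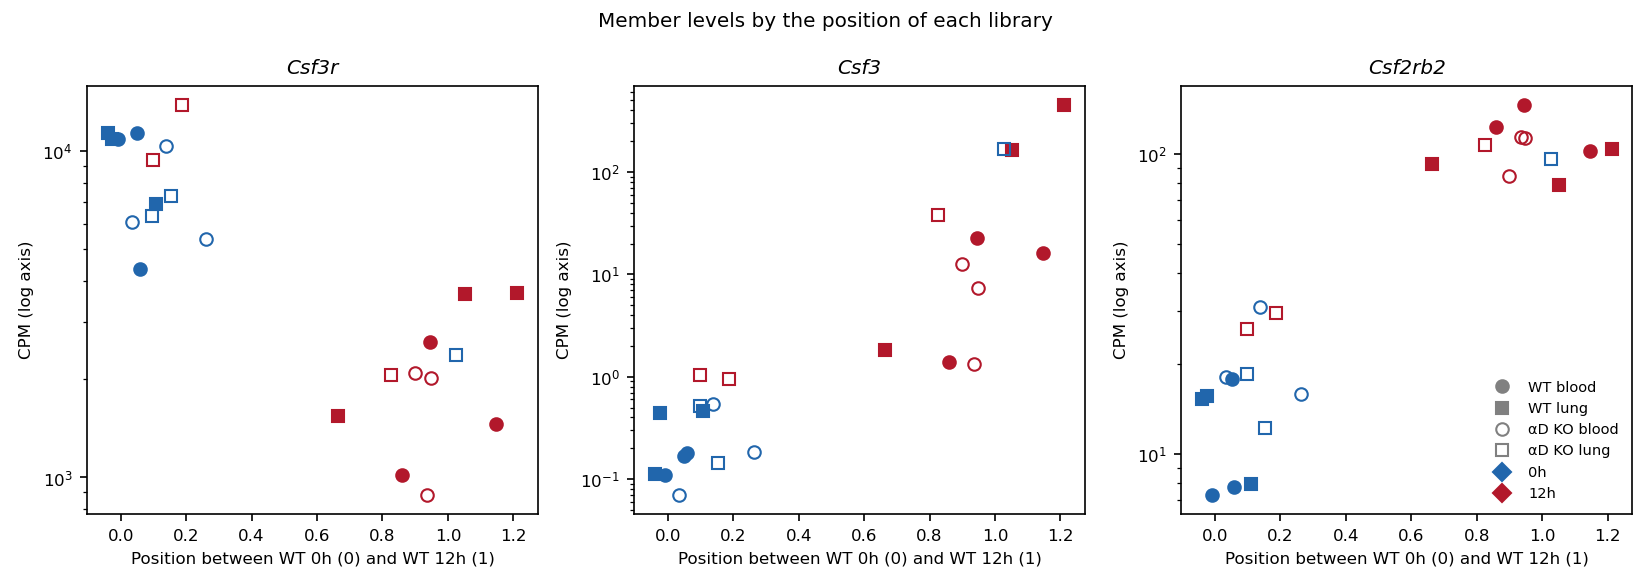
Level of Csf3r, Csf3 and Csf2rb2 (y axis, CPM, log axis) against the position of each library between WT 0h (0) and WT 12 hours (1) of its tissue (x axis). Positions were taken over 1969 genes in blood and 1336 in lung, called between those WT groups, without the 7 members. Open squares are αD KO lung libraries. The 0h library at 1.026 had 2372.3 CPM of Csf3r and 167 CPM of Csf3, and the 12 hours libraries at 0.099 and 0.188 had 9390.5 and 13800.5 CPM of Csf3r.

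The tissue-by-time difference asks whether the change after CLP in αD KO differed between lung and blood. EdgeR called 0 of the 7 genes and 0% of 22218 genes at an adjusted p under 0.05, with 3 of the 7 at an unadjusted p under 0.05 (Csf3r, Csf3 and Csf1r). Csf1r differed by 2.93 on the log2 scale (standard error 0.61, edgeR adjusted p = 0.403) and Csf3r by 2.81 (standard error 0.94, edgeR adjusted p = 0.403). Csf3 differed by -6.61 (standard error 2.82, edgeR adjusted p = 0.436), and by 0.79 without 0h lung library 2 and -10.43 without 12 hours lung library 1b. The median over 23 monocyte and macrophage markers other than Csf1r was 2.83, against 0.44 over all genes, with 0 called by edgeR and 6 of 24 higher by DESeq2, Csf1r among the 24. Medians of other lists in this difference were 5.63 for T and NK cell, 4.24 for eosinophil and basophil, 4.17 for platelet, 3.73 for B cell and -2.18 for neutrophil markers other than Csf3r, and the part of these cells in the member values was not tested. Of the 7 genes, DESeq2 called Csf1r and Csf3r (adjusted p = 0.000135 and 0.0379), and it called 1.3% of all genes. Without the 12 hours lung libraries 1a and 2, the differences were 2.19 for Csf1r and 0.87 for Csf3r. Without 0h lung library 2 as well, they were 1.81 and 0.41. Both choices follow the expression of the libraries and leave 1 lung library at 12 hours, so no test is drawn from them.

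Between lung and blood of WT at 0h, no member passed the test. EdgeR called 0 of the 6 genes tested and 0% of 15967 genes, none of the 6 passed an unadjusted p of 0.05, and DESeq2 called 0. The log2 fold changes of lung over blood were between -0.17 (Csf1r) and 0.14 (Csf2rb2). Csf3 was too low to be tested. In αD KO at 0h edgeR called 0 of the 7 and 0% of 19000 genes, with Csf3 alone below an unadjusted p of 0.05, and by DESeq2 the number called was 0, giving no adjusted p for Csf3. The log2 fold change of Csf3 was 7.52 (standard error 2.57) and came from library 2, the 0h library that stood apart. Without that library it was 0.4.

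At 12 hours in WT the mean levels of Csf1 and Csf3 were above those of blood in the lung, but neither gene passed the edgeR threshold. EdgeR called 0 of the 7 and 0.0442% of 13590 genes, with 2 of the 7 at an unadjusted p under 0.05. Csf1 had 433 ± 386 CPM in lung and 52.5 ± 27.9 CPM in blood (SD, n = 3; log2 fold change 2.94, standard error 0.87, edgeR adjusted p = 0.166). DESeq2 called Csf1 alone (adjusted p = 0.00437), and 8.28% of all genes. Csf3 had 205 ± 225 and 13.5 ± 11 CPM (log2 fold change 3.87, standard error 1.45, edgeR adjusted p = 0.225). Csf1 was above its same-numbered blood library in 2 of 3 numbers and Csf3 in 3 of 3, with library 1b at 1.84 CPM in lung and 1.4 CPM in blood. Without lung library 1b, edgeR called Csf1 and Csf3 (log2 fold change 3.46 and 4.43, adjusted p = 0.00291 and 0.0123), and with them 2916 of 14435 genes tested, or 20.2%. Both were also called with library 1b kept when no filter on low counts was used, where 1.59% of all genes were called. Summing the files of sample 1 called both as well, with 4.47% of all genes. That sum left 2 columns per group and hid the low value of 1b, which had 23 Csf3 counts in lung against 6352 in 1a. The summed level of 14 lung structural markers was 128 to 391 CPM in WT lung and 21 to 21.6 CPM in WT blood at 12 hours, with a median log2 fold change of 3.48 against 0.03 over all genes. EdgeR called 1 of the 14 (Epas1, 7.46) and DESeq2 9, all higher in lung, and none of the 14 was at 0 counts in all libraries of either group. Their part in the Csf1 and Csf3 values was not tested. The 5 receptor genes differed between tissues by -0.31 to 0.85 on the log2 scale. These WT libraries at 12 hours belong to the contrast that chose the genes.

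In αD KO at 12 hours, Csf3r was 8416.7 ± 5931.1 CPM in lung and 1665 ± 676 CPM in blood. The log2 fold change was 2.46 (standard error 0.64, edgeR adjusted p = 0.105). Csf1r was 491 ± 196 and 121 ± 27.8 CPM (log2 fold change 2.16, standard error 0.38, edgeR adjusted p = 0.092). EdgeR called 0 of the 7 genes and 0.0548% of 14592, with 2 of the 7 below an unadjusted p of 0.05, and DESeq2 called the same 2 and 10.2% of all genes. Without lung libraries 1a and 2, which stood near 0h, the log2 fold change was 0.44 for Csf3r and 1.29 for Csf1r. That left 1 lung library, chosen by its expression, and no test is drawn from it. Without library 1b instead, edgeR called Csf3r (2.87, adjusted p = 0.00852), Csf1r (2.36, adjusted p = 0.00596) and Csf2rb2 (-1.86, adjusted p = 0.0164), and with them 1691 of 15144 genes tested, or 11.2%. That left lung libraries 1a and 2, which stood near 0h, against blood at 12 hours. A tissue difference cannot be told apart from the change over time in these calls. Library 1b had 2059 CPM of Csf3r, within the blood range of 886 to 2092.3 CPM. The lung structural markers summed to 61.2 to 259 CPM in these lung libraries, lowest in library 1b, and to 11.5 to 30.3 CPM in blood, where Sftpc had 0 counts. Their median log2 fold change was 4.57, with 2 of 14 called by edgeR and 9 by DESeq2. Monocyte and macrophage markers other than Csf1r had a median of 0.62 and neutrophil markers other than Csf3r of -1.11, against 0.07 over all genes, and edgeR called 0 of both lists. DESeq2 called 4 higher and 1 lower of 22 monocyte and macrophage markers, Csf1r among them, and 1 higher and 3 lower of 12 neutrophil markers, Csf3r among them. The part of these cells in the member values was not tested.

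With the filter on low counts, edgeR called no member between αD KO and WT in the 4 matched pairs of groups. In blood at 0h edgeR called 0 of 6 tested and 0.0115% of 17356 genes, with 1 of the 6, Csf1, at an unadjusted p under 0.05 (log2 fold change -0.89, standard error 0.34), and DESeq2 called 0. In lung at 0h it called 0 of 7 and 0% of 18232 genes, with Csf3 alone below an unadjusted p of 0.05, and by DESeq2 the number called was 0, giving no adjusted p for Csf3. The Csf3 log2 fold change there was 7.14 (standard error 2.51) and -0.02 without αD KO library 2. In blood at 12 hours it called 0 of 7 and 0% of 12596 genes, none of the 7 passed an unadjusted p of 0.05, and DESeq2 called 0. The log2 fold changes in that comparison were -0.03 for Csf3r (standard error 0.38) and -0.88 for Csf3 (standard error 0.89), and the largest was 1.08 for Csf1 (standard error 0.75).

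In lung at 12 hours edgeR called 0 of 7 and 0% of 16764 genes. Of the 7, 2 had an unadjusted p under 0.05 (Csf1r and Csf3r), and DESeq2 called 1 (Csf1r) and 1.15% of all genes. For Csf1r the αD KO libraries had 491 ± 196 CPM and the WT libraries 200 ± 43.2 CPM (log2 fold change 1.46, standard error 0.42, edgeR adjusted p = 0.598), and its DESeq2 adjusted p was 0.0373. Csf3r was 8416.7 ± 5931.1 and 2955 ± 1226.8 CPM (log2 fold change 1.68, standard error 0.69, edgeR adjusted p = 0.598). The largest difference was that of Csf3. Its αD KO libraries had 1.05, 38.2 and 0.948 CPM and overlapped the WT libraries, at 447, 1.84 and 165 CPM (log2 fold change -3.48, standard error 1.88, edgeR adjusted p = 0.64). Leaving out a library gave -7.54 (without αD KO library 1b) to -2.53 (without WT library 1a) for Csf3. With no filter on low counts edgeR called Csf3 lower in αD KO, where 0.489% of all genes were called in either direction. Without αD KO libraries 1a and 2, chosen by their expression, 1 αD KO library remained and the log2 fold changes were 0.76 for Csf1r, -0.18 for Csf3r and -2 for Csf3, values from which no test is drawn. In the remaining library 1b, Csf1r was 272 CPM, above the WT range of 151 to 233 CPM, and Csf3r was 2059 CPM, within the WT range of 1538.4 to 3670.7 CPM. WT libraries at 12 hours are shared with the contrast that chose the genes. The difference at 0h between genotypes in the lung to blood change was also tested, and edgeR called 0 of the 7 and 0% of 26293 genes, with Csf3 alone at an unadjusted p under 0.05, while DESeq2 called 0 and gave no adjusted p for Csf3. The Csf3 value was 6.47 on the log2 scale (standard error 2.92), and -0.74 without αD KO lung 0h library 2.

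Csf3r and Csf1r correlated over the 24 libraries with a Spearman rho of 0.92, and the ratio of their levels per kb lay between 10.3 and 28.9, a range of 2.81-fold, while Csf3r alone ranged 15.6-fold. The libraries share their scaling factors, and the WT contrast that chose the genes is part of the 24. The Csf2rb2 share of the β chain counts was 3.34% ± 0.667 in WT blood at 0h and 11.8% ± 0.814 at 12 hours (SD, n = 3). In WT lung it was 3.84% ± 0.932 and 10.9% ± 1.65. In αD KO blood it was 7.14%, 4.6% and 5.39% at 0h and 9.18%, 11.5% and 11.8% at 12 hours, without overlap, from 5562 to 13336 counts per library. In αD KO lung it was 3.89%, 5.23% and 12.3% at 0h and 7.04%, 14.4% and 4.48% at 12 hours, again with library 2 at 0h and library 1b at 12 hours the highest.

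**Figure D4:**
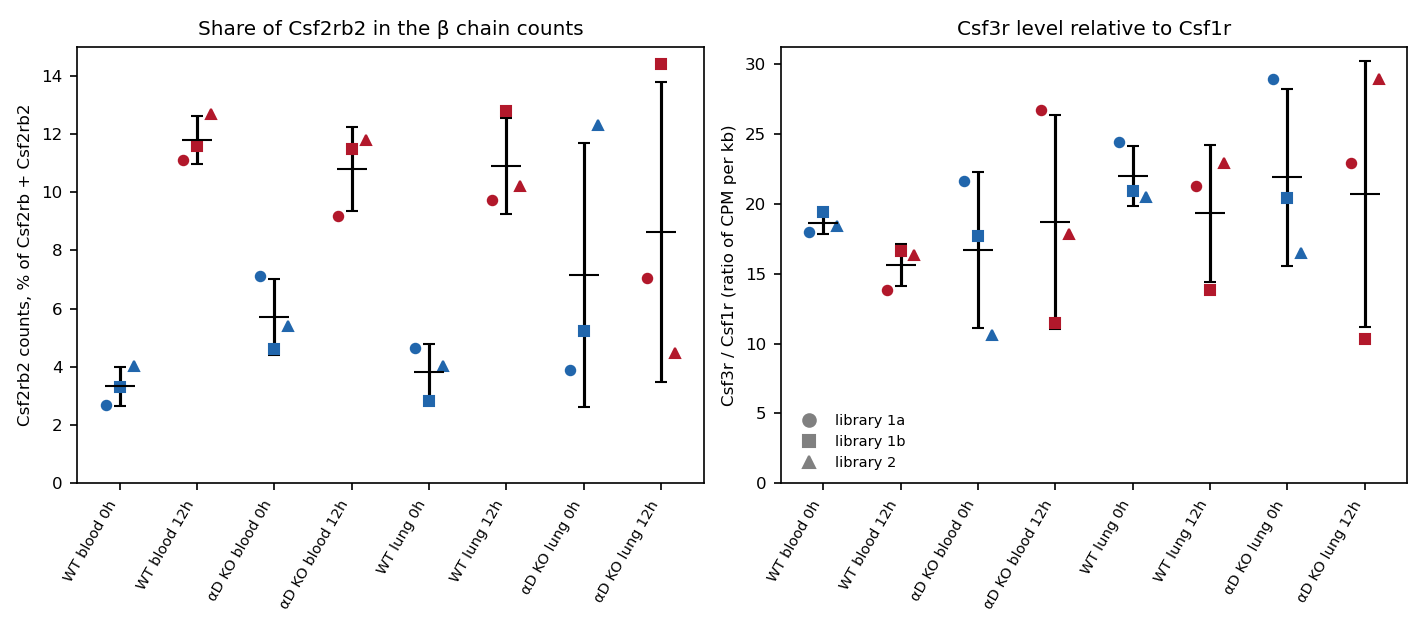
Left, Csf2rb2 counts as a percentage of Csf2rb and Csf2rb2 counts (y axis), and right, the ratio of Csf3r to Csf1r in CPM per kb (y axis), in the 8 groups (x axis). Points are libraries (blue 0h, red 12 hours), and black lines are the mean ± SD of 3. The share was 2.69% to 4.66% in WT at 0h and 9.72% to 12.8% in WT at 12 hours, and the ratio lay between 10.3 and 28.9 in all libraries.

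The genes whose levels were most like those of Csf3r over the 24 libraries were Gcnt2, Jaml and Nisch (Spearman rho 0.976, 0.971 and 0.964). For Csf3 they were Mreg, Maco1 and Cish (0.947, 0.915 and 0.914). For Csf1r they were Slc37a2, Adgre1 and Otulinl (0.962, 0.955 and 0.94). Among the members, Csf3r correlated with Csf1 at 0.72, with Csf2ra at 0.08 and with Csf2rb2 at -0.75, and Csf3 correlated with Csf2rb2 at 0.81. These values are descriptions across 23677 genes ranked, in libraries that include the WT contrast.

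Of the other ligands of these receptors, none was abundant. Csf2, the gene of GM-CSF, was at most 7.7 CPM, in αD KO lung 0h library 2, and otherwise at most 2.67 CPM, in WT lung 12 hours library 2. In WT lung it was 0.45, 0.413 and 0.405 CPM at 0h and 1.9, 0.561 and 2.67 CPM at 12 hours, without overlap (log2 fold change 1.87, standard error 0.69, edgeR adjusted p = 0.125). In blood it had 0 to 10 counts per library. Between lung and blood of WT at 12 hours the log2 fold change of Csf2 was 3.61 (standard error 1.05, edgeR adjusted p = 0.165), and DESeq2 called it (adjusted p = 0.0172). Il34 was at most 0.641 CPM, Il5 at most 0.372 CPM and Il3 at most 0.0687 CPM.

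Il3ra, the α chain that pairs with Csf2rb2, was among the called genes. It was 0.471 ± 0.503 CPM in WT blood at 0h and 8.25 ± 2.49 CPM at 12 hours (log2 fold change 3.92, standard error 0.78, edgeR adjusted p = 0.0182). In WT lung it was 0.613 ± 0.382 and 6.29 ± 3.54 CPM (log2 fold change 3.21, standard error 0.7, edgeR adjusted p = 0.03, and 0.0558 with the library number as a replicate block). In αD KO blood it was 0.688 ± 0.415 and 8.51 ± 3.12 CPM (log2 fold change 3.44, standard error 0.65, edgeR adjusted p = 0.0197), from 50 counts at 0h and 327 at 12 hours. In each of these comparisons the 0h libraries of Il3ra alone would not have passed the filter on low counts, so the calls are not taken as support for a rise. In αD KO lung it was 0.567, 0.669 and 7.83 CPM at 0h and 0.717, 4.26 and 1.34 CPM at 12 hours, and it was not called. Il5ra, the IL-5 receptor chain of eosinophils, was at most 4.81 CPM.

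Genes of the signalling route behind these receptors were taken from 3 lists, written with results of these data known. Of 30 receptor signalling genes tested in αD KO blood, 2 rose and 1 fell, where 8.75% of all genes were called, with Jak3 at a log2 fold change of 1.65 (standard error 0.43, edgeR adjusted p = 0.0495). DESeq2 called 3 higher and 3 lower, and 17.6% of all genes. Their median log2 fold change was -0.09, against -0.14 over all genes tested. In WT blood 2 of 30 rose and 0 fell by edgeR, while DESeq2 called 2 higher and 5 lower, and 21.4% of all genes. In WT lung 1 rose and 1 fell (2 and 2 by DESeq2, which called 18.9% of all genes), with Jak3 in WT blood and WT lung at 2.11 and 1.57, where 13.5% and 9.02% of all genes were called. The medians were -0.3 in WT blood and 0.31 in WT lung, where all genes had -0.15 and 0.03. Jak3 partners the common gamma chain receptors rather than those of the CSFs.

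Among 23 negative regulators tested, Cish, a STAT5-induced SOCS family gene, was the called gene with the largest change in WT blood, WT lung and αD KO blood. Cish went from 1.35 ± 0.553 to 55.7 ± 21.7 CPM in WT blood (log2 fold change 5.11), from 1.87 ± 0.313 to 81.2 ± 60.3 CPM in WT lung (5.26) and from 2.22 ± 2.33 to 65.4 ± 15.2 CPM in αD KO blood (4.7, edgeR adjusted p = 0.0204). In WT blood 3 of 23 rose and 0 fell, the others being the adaptor Dok2 (3.22) and the phosphatase Ptpn11 (1.33). In WT lung 6 rose and 0 fell, with Dok2 (3.54), the Ras pathway inhibitors Spred2 (3.04) and Spred1 (2.78), and the phosphatases Ptpn1 (1.77) and Ptpn11 (1.57) next to Cish. Cish and Ptpn1 (1.26) rose in αD KO blood and Dok1 fell (-1.86). The shares of all genes called in WT blood, WT lung and αD KO blood were 13.5%, 9.02% and 8.75%. The list medians were 0.23, 0.54 and 0.11, against -0.15, 0.03 and -0.14 over all genes. DESeq2 called 5, 9 and 4 of these regulators higher and 1 lower in each comparison, where it called 21.4%, 18.9% and 17.6% of all genes.

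Among the targets and myeloid survival genes, 5 rose and 3 fell of 28 tested in WT blood, 8 rose and 0 fell of 28 in WT lung, and 5 rose and 1 fell of 27 in αD KO blood, where 13.5%, 9.02% and 8.75% of all genes were called. The endotoxin co-receptor Cd14 rose in each, with log2 fold changes of 3.39, 4.97 and 4.41, and so did the transcriptional inhibitor Id2 (3.79, 4.4 and 4.34). The kinase gene Pim2 rose in WT lung (4.14) and αD KO blood (2.94). The survival gene Bcl2l1 rose in all 3 comparisons (1.65, 3.14 and 1.53), as did the cyclin gene Ccnd3 (1.64, 1.52 and 1.58). The chemokine receptor Cxcr4 fell in WT blood (-2.55) and αD KO blood (-2.03). Pim3 (-2.19) and Cebpd (-1.97) fell in WT blood, and Bcl3 rose in WT lung (2.33). The list medians were 0.19, 0.73 and 0.11, and DESeq2 called 7, 11 and 5 higher and 4, 2 and 2 lower, against 21.4%, 18.9% and 17.6% of all genes. The list calls in WT lung rest on single libraries, since edgeR called 0 of all genes there without 0h library 1a, 0h library 2 or 12 hours library 1a, and 27 without 12 hours library 2. In WT blood it called 2 to 150 genes without 0h library 1a or 2 or 12 hours library 1a or 2. In αD KO lung no gene of the 3 lists was called by edgeR or DESeq2, with 1 gene at an unadjusted p under 0.05.

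Markers of neutrophils were present in every library. The summed level of 11 neutrophil markers other than Csf3r was 25282.3 to 43915.6 CPM in the WT libraries at 0h and 157489.5 to 353230.1 CPM at 12 hours. The same sum in αD KO blood was 29831.1 to 70824.2 CPM at 0h and 186999.5 to 234018.5 CPM at 12 hours. Its part in the values of the 7 genes was not tested. Since Csf1r also marks monocytes and macrophages, 23 other markers of those cells were summed. In WT blood they were 308 to 1578.9 CPM at 0h and 16063.7 to 47030.9 CPM at 12 hours, and most of the sum at 12 hours was Chil3, which was 313 ± 406 CPM at 0h and 27975.2 ± 15794.6 CPM at 12 hours. Of the 20 tested there, 2 rose (Chil3, 6.31, and Ly6c2, 2.54) and 1 fell (Ccr2, -3.08), with a median log2 fold change of -0.06 against -0.15 over all genes. For WT lung the sum was 424 to 752 CPM at 0h and 4769.3 to 9700.5 CPM at 12 hours. Of the 19 tested there, 3 rose (Chil3, 5.38, F13a1, 4.18, and Ly6c2, 2.54) and 1 fell (Adgre1, -1.68), with a median of 0.53 against 0.03. The αD KO blood libraries had 332 to 4887.2 CPM at 0h and 4783.6 to 20411.1 CPM at 12 hours, where 0 of the 21 tested rose and 4 fell (C1qc, C1qa, Adgre1 and Cd68). Their median log2 fold change was -2.34, against -0.14 over all genes, and DESeq2 called 10 lower and 0 higher of 22, Csf1r among the 22. Csf1r was lower at 12 hours in WT blood and WT lung too, where the medians were -0.06 and 0.53. In αD KO blood the sum was higher at 12 hours while the median was lower. Adgre1 was 136 ± 36.2 CPM at 0h and 21.9 ± 8.31 CPM at 12 hours there. None of the 23 had 0 counts in all libraries of a group. Of 8 eosinophil and basophil markers, Siglecf and Ccr3 fell in WT blood, WT lung and αD KO blood, Ear2 rose in WT blood (2.18), and the sum in αD KO blood was 58.1 to 182 CPM at 0h and 7.13 to 13.3 CPM at 12 hours, with Prg2, Mcpt8 and Fcer1a at 0 counts at 12 hours. The part of monocytes, macrophages, eosinophils and basophils in the lower Csf1r was not tested. In αD KO blood, 2 of 8 B cell markers, 2 of 7 T and NK cell markers and 3 of 8 platelet markers tested fell and none rose, with 0h library 2 the highest in each sum, and 0 of 5 lung structural markers were called. In WT lung 3 of 8 B cell markers and 1 of 8 platelet markers fell, and in WT blood 3 of 8 platelet markers fell.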

How the data were processed

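RNA of sorted neutrophils was made into full-length cDNA and Nextera XT libraries and sequenced as read pairs. Per the submitters' processing notes and the study's methods, the authors trimmed reads with Trimmomatic 0.36, mapped them to GRCm38 (mm10) with STAR 2.5.2b and counted unique reads within exons. The deposited values are raw counts per gene, in 24 files of 16 samples, and no column was left without a sample (0). The counting tool and its strand setting are not given in the sources used here.

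Groups came from the sample labels. Each of 12 comparisons of 2 groups and 2 differences of changes was fitted on all genes passing edgeR's filter for low counts (R 4.3.3, edgeR 4.0.16, TMM, quasi-likelihood F test, two-sided, Benjamini-Hochberg adjustment). A gene was called at an adjusted p under 0.05 and, for pairs of groups, an absolute log2 fold change over 1. The standard error is the log2 fold change divided by the square root of F. DESeq2 1.42.0, other filters and scalings, summed files of sample 1, a replicate block and leaving out each library were alternatives. The edgeR script was tested on simulated counts. An exact permutation test of 3 against 3 libraries cannot go below 0.1 and was not used. Intervals were not computed, and depth limits the low genes, Csf3 at 0h above all.

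The members and lists were chosen with earlier results of these data known. Named were the 7 members, the other ligands and receptors of the family, up to 5 called genes with the largest change per signalling list and comparison, the 3 genes most like Csf3r, Csf3 and Csf1r (genes with at least 10 counts in at least 3 libraries), and Itgad. Bcl2l1, Ccnd3 and Ptpn11 are also given where they fell outside the first 5, and marker genes were named after their values were seen. Some called genes of the signalling list are not reported here. The correlation of deviations of same-numbered libraries was over 0.1 for all 3 numbers in 6 of 12 comparisons, for example 0.459, 0.591 and 0.117 in WT blood over time, but the labels name no shared animal or day.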

Additional observations from a re-analysis of the deposited data

How the results depend on the processing

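In αD KO blood over time, 4 members were called, and 1 (Csf1r) when all 8 groups shared a fit (0.236% of all genes). With at least 10 counts in every library Csf3 was not tested and 3 of 6 were called (12.5% of all genes). Leaving out a library gave 1 to 4 (0.456% to 8.74% of all genes). With the library number as a replicate block the count was 4 (10.7% of all genes), and the block changed no call of a member in the tested comparisons. In αD KO lung over time, 0 members passed. Without the 3 libraries that stood apart Csf3 turned to 7.01, but these were chosen by their expression and 1 library remained at 12 hours, so this is a value with no test. Between WT lung and blood at 12 hours, 2 passed with no filter, 1 with DESeq2 and 2 with the files of sample 1 summed (1.59%, 8.28% and 4.47% of all genes), and 0 to 2 when a library was left out. For αD KO lung and blood at 12 hours these were 2, 2 and 2 (3.13%, 10.2% and 8.27% of all genes), and 0 to 3. For αD KO against WT lung at 12 hours, 1 passed with no filter (Csf3, lower, with 0.489% of all genes) and 1 with DESeq2 (Csf1r, higher, with 1.15%). For the αD KO tissue-by-time difference, 1 passed with no filter and 2 with DESeq2 (0.11% and 1.3% of all genes). The cause was not tested. In WT, leaving out a library gave log2 fold changes of -2.95 to -2.3 (blood) and -2.15 to -1.61 (lung) for Csf3r, and 5.64 to 6.6 and 7.69 to 9.48 for Csf3. Over all alternatives, the number of all genes called ranged from 64 to 2496 in αD KO blood, 2 to 3135 in WT blood and 0 to 3941 in WT lung. Such counts of calls cannot be set against the fold changes above. Outside the WT change over time, 1186 values of single genes were compared under alternatives. Of these, 1068 kept their direction and side of the threshold, and 81 changed direction with no call in either fit. Another 23 passed the threshold only under the alternative, 13 no longer passed it, and 1 changed direction with a call.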
